A study of Mus musculus with 2 samples.

Results

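Aminoacyl-tRNA synthetases are the enzymes that join each amino acid to its tRNA, and 36 of their genes were examined: 20 for enzymes of the cytosol and 16 for enzymes of mitochondria, the latter carrying the suffix 2 in their symbols. They were picked by symbol from the 23652 genes of the deposited table. Each library is RNA sequencing of pancreatic islets from mice aged 7 months. The control was SRSF2 flox/flox, in which both copies of Srsf2 (a splicing regulator also called SC35) can be deleted by Cre, and the other genotype was SRSF2 flox/flox Ins2-Cre, called the knockout here. Both genotypes carry the floxed allele, and the control carries no Cre, so an effect of Cre itself and loss of Srsf2 cannot be told apart. The Ins2 promoter directs Cre to beta cells, while the RNA came from whole islets. How many mice gave each library is not given in the labels used. There was 1 library per genotype, so no difference has a replicate check, and each value describes these libraries.

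Translation needs every tRNA to carry its own amino acid. Synthetases fall into a pair of unrelated structural classes, I and II, and cells keep separate sets for the cytosol and for the mitochondrial ribosome, with Gars (glycine) and Kars (lysine) each serving both compartments from a single gene. In mammalian cells several cytosolic enzymes are bound together in the multi-synthetase complex. Many cytosolic synthetase genes are targets of the transcription factor ATF4, the effector of the amino acid response, in mouse and human cells. Beta cells depend on this supply because insulin and its companions make up much of what they translate.

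The libraries held 17412828 reads on genes (control) and 15098659 (knockout). Levels are FPKM, reads scaled to gene length and library total, and a difference is log2(FPKM + 0.5) in the knockout minus the control, a scale that understates changes of low genes. Ratios are of FPKM without the pseudocount, with 95% counting intervals (exact binomial) that cover counting error only and leave out variation between mice. The 10666 genes with a mean of at least 1 FPKM are called measured. Their median difference was -0.36, or a ratio of 0.778 that, unlike the other ratios, includes the pseudocount. Relative differences are differences minus that median. Srsf2 itself had 37.2 FPKM in the control and 22.6 in the knockout, a ratio of 0.607 (0.566 to 0.651). The summed level of 24 acinar cell markers was 15468 FPKM in the control and 138469 in the knockout, and 22 of the 24 were 2-fold or more higher, while Prss1 had no control read and 4 knockout reads. Macrophage markers summed to 125 and 153 FPKM and lymphocyte markers to 36.1 and 91.8. Beta cell markers summed to 380317 and 352131, most of it Ins1, Ins2 and Iapp. The median difference of the 10 was -0.62, and 3 of them (Slc2a2, G6pc2 and Slc30a8) were at least 2-fold lower, beside 6.32% of all measured genes. Relative to the median of all genes, only 1 of the 10 (Slc2a2) was at least 2-fold lower. Markers of alpha, delta and PP cells summed to 32928 and 55398 FPKM. In whole islets, fewer cells of a type and less RNA per cell cannot be told apart, and the part of these shifts in the values below was not tested.

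Transcripts of most synthetases, like those of most measured genes, made up less of the knockout library. All 36 together took 0.246% of reads in the control (42859 reads) and 0.198% in the knockout (29926 reads), a ratio of 0.805 (0.793 to 0.817). This pooled ratio was slightly above the ratio of 0.778 at the median of all genes. Of 34 measured synthetase genes 29 were below 0, where 78.9% of all measured genes were, 5 were above 0 (21.1% of all), and 20 were below the median of all genes, where 50% are by definition. Only Vars2 was at least 2-fold lower, against 6.32% of all measured genes, and 0 were at least 2-fold higher, against 1.57%. Relative to the median it was again 1 gene lower (1.36% of all) and 0 higher (3.22% of all). At 1.5-fold, 13 were lower and 0 higher, against 29.6% and 3.69% of all genes. The median difference was -0.55 in the cytosolic group (19 measured, from -0.95 to 0.21) and -0.49 in the mitochondrial group (15 measured, from -1.37 to 0.56). The gap between these medians was -0.06, small beside the range within either group. In the authors' deposited table, by DESeq, 0 of 35 listed synthetases had an adjusted p-value under 0.05 (all were 1) and 0 an unadjusted p under 0.05, against 82 and 442 of all 16528 genes (0.496% and 2.67%).

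**Figure D1:**
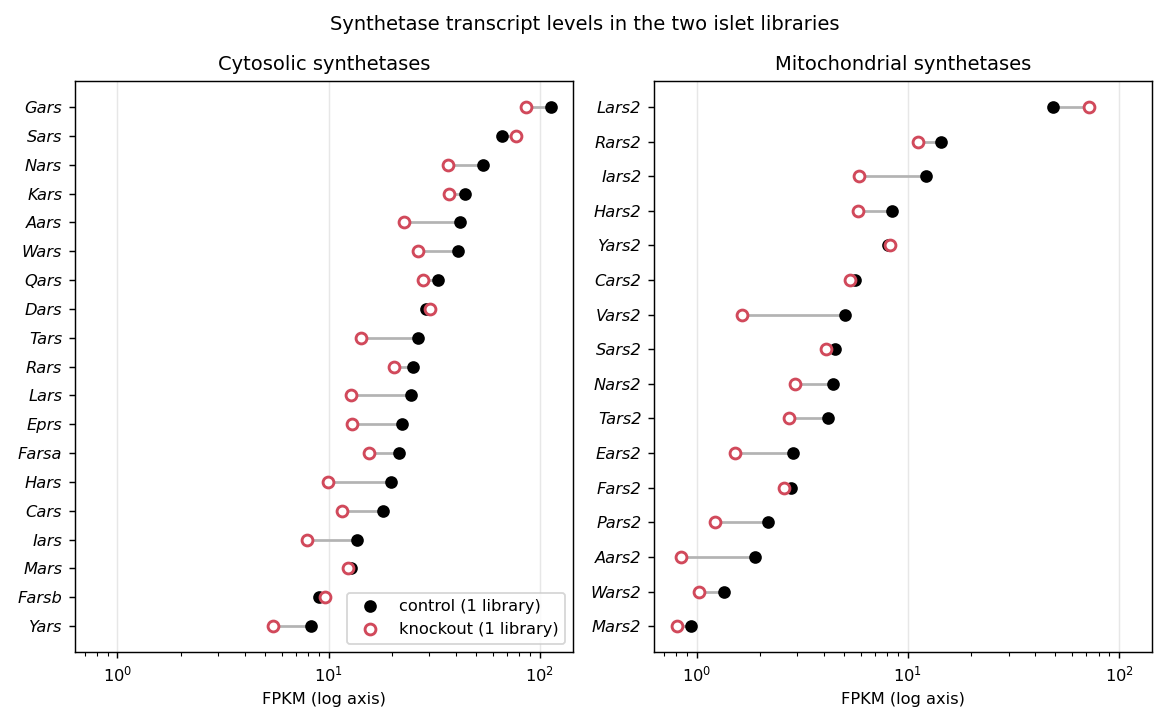
Level of each synthetase gene in FPKM on a log axis, cytosolic on the left and mitochondrial on the right, ordered by control level (Vars, at 0, is not drawn). Filled points are the control library and open points the knockout library. Most open points lie left of their filled point, and Lars2, at 48.8 and 72.1 FPKM, stands far to the right of the other mitochondrial genes.

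Promoter sequence is shown because a letter pattern tied to ATF4 occurs in several of the cytosolic genes. ATF4 binds, with a C/EBP partner, to an element whose core is written here as TGATGNAA. RefSeq promoter windows (GRCm38.p6, 250 bases before to 50 after a gene's start) were given for 26 of the 36 genes, and both strands were searched. The core was found in 5 of 12 cytosolic genes and in 0 of 14 mitochondrial genes, beside 3.97% of all 32851 windows of that length. Windows of Cars, Hars, Hars2, Lars, Mars, Nars, Pars2, Rars, Vars and Wars were not analysed here. The genes with a match were Aars, Gars, Iars, Tars and Yars, for alanine, glycine, isoleucine, threonine and tyrosine. Each is printed 5′ to 3′ on the gene's strand with the match in capitals, Aars as the whole window and Gars, Iars, Tars and Yars as the 100 bases around the match. TTGCATCA and TTTCATCA are the core read on the other strand.
Aars, chr8:111033592-111033891, plus strand, with matches at -112 to -105 and 10 to 17 from the start: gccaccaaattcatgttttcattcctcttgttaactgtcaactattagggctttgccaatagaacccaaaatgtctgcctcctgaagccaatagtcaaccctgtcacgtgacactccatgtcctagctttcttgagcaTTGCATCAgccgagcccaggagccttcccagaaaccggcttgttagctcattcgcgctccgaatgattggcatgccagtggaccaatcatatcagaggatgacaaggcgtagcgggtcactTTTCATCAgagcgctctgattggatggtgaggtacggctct
Gars, chr6:55037925-55038024, plus strand, match at -30 to -23: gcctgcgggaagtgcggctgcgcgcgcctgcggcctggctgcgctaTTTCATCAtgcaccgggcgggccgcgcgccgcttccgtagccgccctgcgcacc
Iars, chr13:49682080-49682179, plus strand, match at 8 to 15: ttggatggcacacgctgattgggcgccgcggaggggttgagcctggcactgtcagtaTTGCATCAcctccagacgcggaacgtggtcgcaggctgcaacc
Tars, chr15:11399620-11399719, minus strand, match at -15 to -8: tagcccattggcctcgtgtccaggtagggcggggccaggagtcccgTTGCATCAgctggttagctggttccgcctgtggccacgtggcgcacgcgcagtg
Yars, chr4:129189853-129189952, plus strand, match at 4 to 11: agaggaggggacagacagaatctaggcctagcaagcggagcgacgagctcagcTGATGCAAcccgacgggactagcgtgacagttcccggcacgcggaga
For contrast, these are the windows of Sars (serine) and Lars2 (mitochondrial leucine), the highest member of each compartment by difference, in which the core was not found.
Sars, chr3:108445210-108445509, minus strand: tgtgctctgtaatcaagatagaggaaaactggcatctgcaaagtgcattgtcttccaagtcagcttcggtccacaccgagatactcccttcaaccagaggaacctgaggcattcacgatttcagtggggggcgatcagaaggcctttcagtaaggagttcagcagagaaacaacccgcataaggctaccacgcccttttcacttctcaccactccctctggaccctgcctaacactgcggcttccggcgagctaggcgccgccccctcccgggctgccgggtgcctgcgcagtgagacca
Lars2, chr9:123366677-123366976, plus strand: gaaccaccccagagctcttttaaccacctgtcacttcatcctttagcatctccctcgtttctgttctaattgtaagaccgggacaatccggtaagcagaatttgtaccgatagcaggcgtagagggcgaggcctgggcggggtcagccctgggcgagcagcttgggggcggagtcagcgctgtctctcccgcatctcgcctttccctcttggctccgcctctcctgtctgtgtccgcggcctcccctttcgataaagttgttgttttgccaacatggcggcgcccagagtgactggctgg
Each of these 5 genes has a match within 30 bases of its start. The CCAAT box, the other pattern searched, was found in 6 of 12 cytosolic and 6 of 14 mitochondrial genes, beside 37.4% of all windows. A match in letters is a description and not a bound site.

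The 5 cytosolic genes with the core were all below the median of all genes. Their differences were -0.88 for Tars, -0.87 for Aars, -0.76 for Iars, -0.56 for Yars and -0.38 for Gars, a median of -0.76. The 7 measured cytosolic genes with a window and no match ran from -0.76 (Eprs) to 0.21 (Sars), with a median of -0.24, and 5 of them were above the median of all genes. The 2 ranges overlap. With the length trend removed the medians were -0.29 with the core and 0.02 without it, a narrower gap. Over all measured genes with a window, the 219 with the core had a median of -0.37 and the 8336 without it -0.37, a pair of medians that do not differ at this rounding. The search was made with the synthetase values already known.

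Cytosolic enzymes at the lower end were those for histidine, leucine, threonine, alanine and isoleucine. Hars, which makes histidyl-tRNA, had 684 control and 299 knockout reads (19.7 and 9.96 FPKM), a ratio of 0.504 (0.439 to 0.578). Lars, the leucine enzyme and a member of the complex, had 24.6 and 12.7 FPKM, a ratio of 0.516 (0.474 to 0.563). Tars, the threonine enzyme, had 26.5 and 14.2 FPKM, a ratio of 0.534 (0.482 to 0.591). All 3 were at little more than a ratio of 0.5 in the knockout library, and their intervals lie below the ratio of 0.778 at the median of all genes. Aars, for alanine, had 42.0 and 22.7 FPKM on 3272 and 1535 reads, a ratio of 0.541 (0.509 to 0.575). Iars, for isoleucine, had 13.7 and 7.86 FPKM, a ratio of 0.574 (0.516 to 0.637). Eprs, which carries the glutamate and the proline enzyme in 1 protein, came next with a ratio of 0.582 (0.546 to 0.620).

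At the upper end stood enzymes for serine, phenylalanine, aspartate, methionine and glutamine. Sars, which charges serine tRNAs and also the selenocysteine tRNA with serine, had 4285 control and 4310 knockout reads (66.4 and 77.1 FPKM), a ratio of 1.16 (1.11 to 1.21). It was the only cytosolic member whose interval lay above 1. Dars, for aspartate, had 28.8 and 30.1 FPKM, a ratio of 1.05 (0.965 to 1.13), and Mars, for methionine, had 12.7 and 12.3 FPKM, a ratio of 0.968 (0.883 to 1.06). The counts of Dars and Mars do not resolve a difference between the libraries. Qars, for glutamine, had 1439 control and 1055 knockout reads, a ratio of 0.846 (0.780 to 0.916). Of 19 measured cytosolic genes, 15 had an interval below 1, and 9 had one below the ratio at the median of all genes, while 6 had one above it. That ratio includes the pseudocount and the intervals do not. Kars was among the 6 by a narrow margin, its interval starting at 0.7780 against 0.7775. Wars (tryptophan) and Cars (cysteine), both at -0.62, and Yars, at -0.56, lay between the ends.

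Phenylalanyl-tRNA synthetase is built from 2 kinds of subunit, and their transcripts differed in ratio. Farsa, the alpha subunit, had 21.6 and 15.5 FPKM, and Farsb, the beta subunit, 9.05 and 9.60. The ratio of Farsa divided by that of Farsb was 0.675 (counting interval 0.560 to 0.814). Farsb shares 2332 bases of its listed span with Sgpp2 on the opposite strand, and no source used here says whether counting used strand.

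The 3 most abundant cytosolic transcripts in the control were Gars, Sars and Nars. Gars had 112 FPKM in the control and 86.3 in the knockout, the highest level in both libraries, and took 14.0% and 14.3% of cytosolic synthetase reads. Its difference of -0.38 was close to the median of all genes. The authors' normalised counts of it were the same in both libraries, which is also where their scaling put the median log2 fold change of all genes. That equality restates the place of Gars at the median and is no separate result. Sars took 12.9% of these reads in the control (12.5% to 13.2%) and 19.7% in the knockout (19.2% to 20.3%). Nars, for asparagine, went from 53.8 to 36.6 FPKM, and Kars from 44.2 to 37.0, so that these 2 changed places in the order. Across the 34 measured genes the order of levels was close in the libraries (Spearman rho 0.980, a description over genes that share both libraries).

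**Figure D2:**
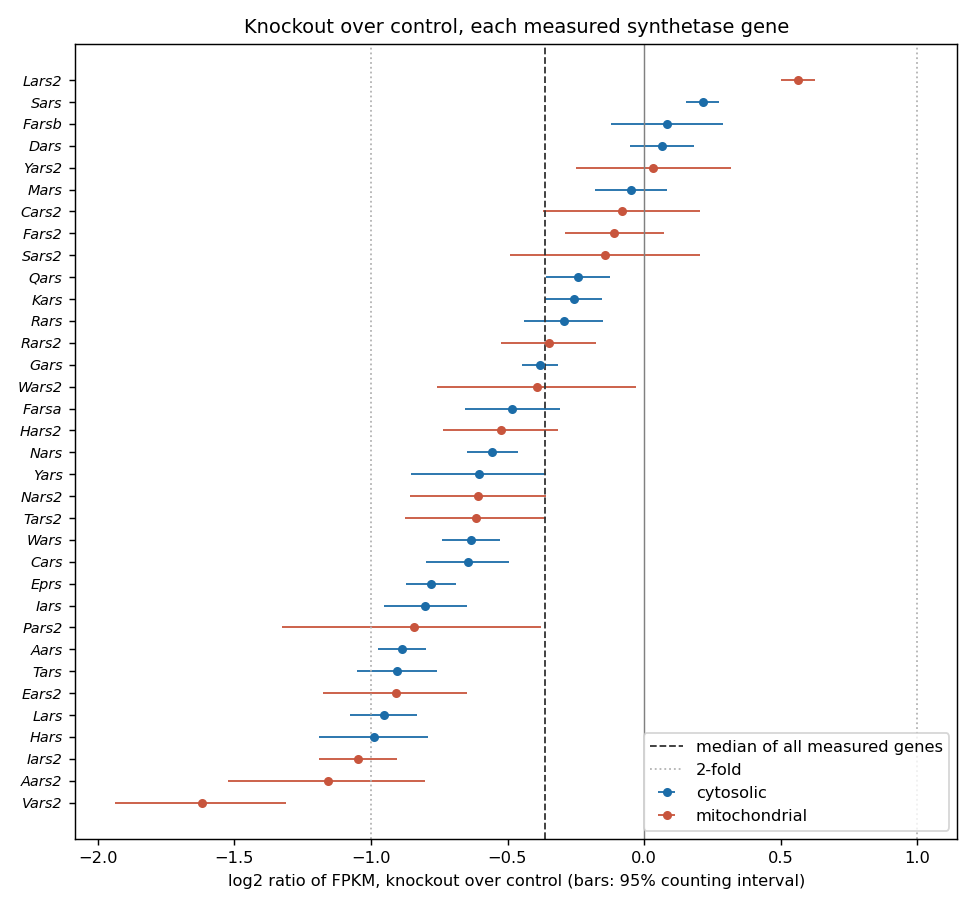
Log2 ratio of FPKM, knockout over control, for the 34 measured synthetase genes, with 95% counting intervals as bars, blue for cytosolic and red for mitochondrial. The dashed line is the median difference of all measured genes (-0.36), which includes the pseudocount where the plotted ratios do not, and dotted lines mark 2-fold. Lars2 and Sars lie alone at the upper end with intervals above 0, and Vars2 is the lowest.

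Members of the multi-synthetase complex spanned most of the cytosolic range. Lars, Iars and Eprs were at -0.93, -0.76 and -0.76, while Rars (arginine), Kars, Qars, Mars and Dars were at -0.29, -0.26, -0.24, -0.05 and 0.06. The 8 members had a median of -0.27, and the 11 measured cytosolic enzymes outside the complex a median of -0.56, both between extremes that overlap (-0.93 to 0.06 and -0.95 to 0.21). The 3 scaffold proteins that hold the complex together had 43.3 and 45.2 FPKM (Aimp1), 12.6 and 9.73 FPKM (Aimp2) and 10.8 and 11.7 FPKM (Eef1e1), a ratio of their pooled reads of 1.001 (0.927 to 1.08). By class, cytosolic class I enzymes (8 measured) had a median of -0.59 and class II (10 measured) -0.42, while mitochondrial class I (8) had -0.31 and class II (7) -0.53. Eprs, which holds an enzyme of each class, was counted in neither. The order of the classes thus differed between the compartments. With the length trend removed, the class I and II medians were -0.27 and -0.21 in the cytosol and 0.02 and -0.03 in mitochondria. Both gaps were then narrower.

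Mitochondrial synthetases were dominated by Lars2, which charges mitochondrial leucine tRNAs. Lars2 (chromosome 9, 123366927 to 123462675, plus strand) had 3773 control and 4830 knockout reads (48.8 and 72.1 FPKM), a ratio of 1.48 (1.41 to 1.54). Its relative difference was 0.92, and 96.0% of measured genes lay below it. It took 39.6% of mitochondrial synthetase reads in the control (38.6% to 40.6%) and 59.6% in the knockout (58.6% to 60.7%). With Lars2 the 16 genes summed to nearly the same share of the libraries (ratio 0.981, 0.952 to 1.01), and the other 15 to a lower one (5747 and 3269 reads, ratio 0.656, 0.628 to 0.685). The next most abundant, Rars2, had 14.3 and 11.2 FPKM. In the authors' deposited table Lars2 had a log2 fold change of 0.94, with an unadjusted p of 0.0518 by DESeq and an adjusted p of 1.

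The mitochondrial enzymes at the lower end were those for valine, isoleucine, alanine and glutamate. Vars2, the valine enzyme (chromosome 17, 35655634 to 35667639, minus strand), had 393 control and 111 knockout reads (5.04 and 1.64 FPKM), a ratio of 0.326 (0.261 to 0.403). Its difference was -1.37, and 1.32% of measured genes had a lower one. Iars2, for isoleucine, had 12.2 and 5.88 FPKM, a ratio of 0.484 (0.438 to 0.534). Aars2, for alanine, had 234 and 91 reads, a ratio of 0.448 (0.348 to 0.574), and Ears2, for glutamate, had 379 and 175 reads, a ratio of 0.533 (0.443 to 0.639). Iars2 and Aars2 were below a ratio of 0.5 and missed the 2-fold rule by the pseudocount. The listed span of Iars2 overlaps that of Rab3gap2 on the opposite strand by 115 bases, and Rab3gap2 had a ratio of 0.491.

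Several mitochondrial enzymes were near equal in the libraries. Yars2, for tyrosine, had 8.03 and 8.22 FPKM, a ratio of 1.02 (0.840 to 1.25). Cars2, for cysteine, had 5.62 and 5.31 FPKM, a ratio of 0.945 (0.774 to 1.15), and Fars2, for phenylalanine, 2.79 and 2.58 FPKM, a ratio of 0.928 (0.817 to 1.05). The counts behind these do not resolve a difference. Sars2 was likewise unresolved with 159 and 125 reads. Hars2, Nars2, Tars2, Pars2, Rars2 and Wars2 lay between, with differences from -0.64 (Pars2) to -0.28 (Wars2). Mars2, for methionine, had 47 and 35 reads and a mean below 1 FPKM, so it is not among the measured genes.

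Set side by side by amino acid, the leucine enzymes lay farthest apart. Of 15 pairs with both partners measured, the cytosolic partner had the lower difference in 11 and the higher in 4, with a median gap of -0.11. This tally turns on the pseudocount: by the ratio without it the cytosolic partner was lower in 7 pairs and higher in 8, with a median quotient of 1.04, so the pairs gave no common direction. In the leucine pair the ratio of Lars divided by that of Lars2 was 0.350 (counting interval 0.318 to 0.385). In the next pairs it was 0.643 for tyrosine (0.494 to 0.836), 0.677 for cysteine (0.540 to 0.848), 0.725 for histidine (0.592 to 0.888) and 0.772 for Farsa with Fars2 (0.647 to 0.921). In the isoleucine and serine pairs the cytosolic enzyme had the higher ratio, and this quotient was 1.19 (1.03 to 1.37) and 1.28 (1.002 to 1.64). The intervals of the other 8 pairs held 1, and the asparagine pair had the smallest gap, with differences of -0.55 for Nars and -0.53 for Nars2. In 13 of 15 pairs the cytosolic transcript had the higher FPKM in both libraries, by up to 30.4-fold (Wars and Wars2, control). Leucine was the exception in both libraries, Lars having 0.504 of the level of Lars2 in the control and 0.176 in the knockout, and the tyrosine pair changed order, from 1.03 to 0.662. Eprs and Fars2 each stand in 2 pairs, and Hars and Hars2 share 4 bases at their starts.

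**Figure D3:**
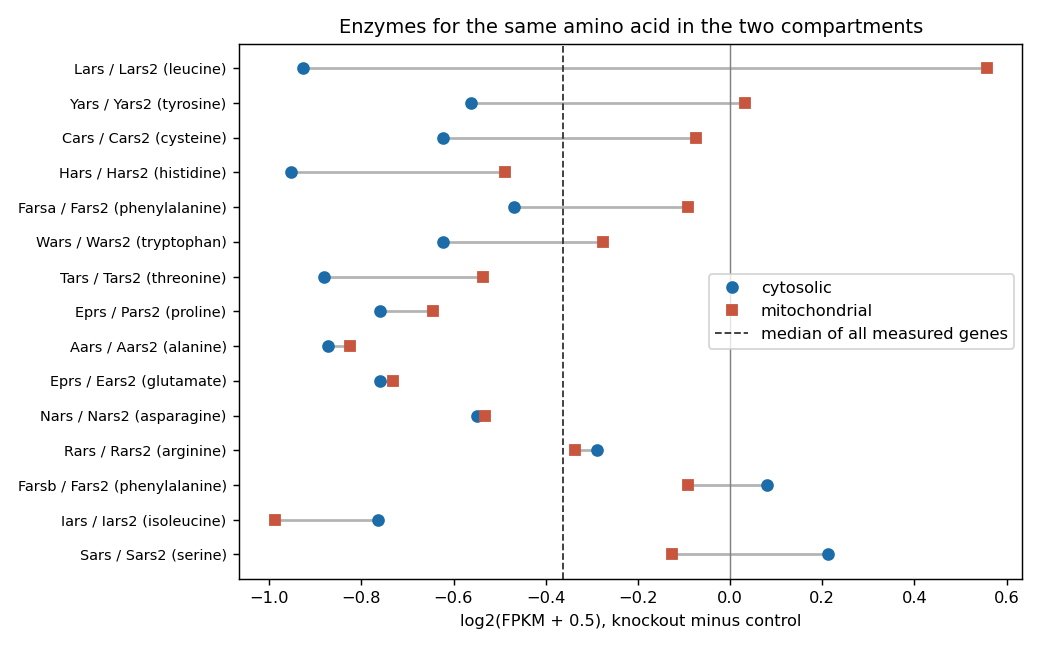
Difference in log2(FPKM + 0.5), knockout minus control, for the cytosolic (blue circle) and mitochondrial (red square) enzyme of each amino acid in 15 pairs, ordered by the gap. The dashed line is the median of all measured genes. The leucine pair spans from -0.93 to 0.56, and the alanine, glutamate and asparagine pairs nearly coincide.

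The libraries also differed by gene length, which bears on the comparison of compartments. Across all measured genes the Spearman rho of listed length and difference was -0.55, and it was -0.31 across the 34 synthetases, given as descriptions. Cytosolic members had a median length of 2636 bases and mitochondrial members 4479. Under 3000 bases, the 12 cytosolic genes had a median difference of -0.42 and the 4 mitochondrial genes -0.10, beside -0.10 for all 4316 measured genes of that length. From 3000 bases up, the 7 cytosolic genes had -0.76 and the 11 mitochondrial genes -0.54, beside -0.52 for 6350 genes. Within both length classes the mitochondrial median was thus near that of other genes and the cytosolic median lower. With the length trend removed, the medians were -0.26 and -0.03, and 14 of 19 cytosolic and 9 of 15 mitochondrial genes were below 0. Lars2 (4438 bases) then stood at 1.04, Sars (3704 bases) at 0.63, Fars2 (11479 bases, the longest) at 0.54, Hars (1989 bases) at -0.81 and Vars2 (4479 bases) at -0.88.

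**Figure D4:**
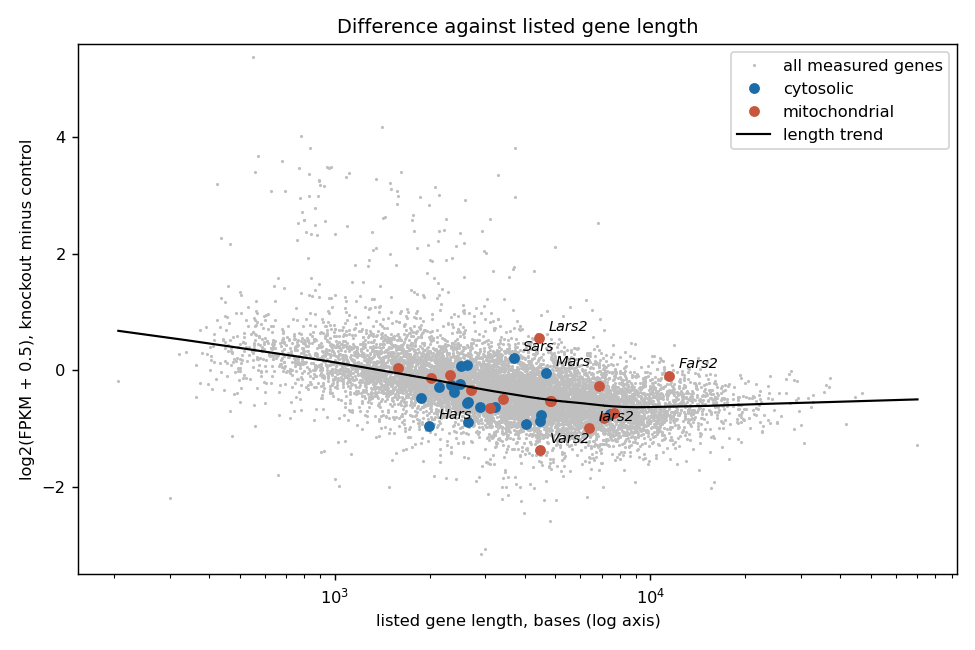
Difference in log2(FPKM + 0.5), knockout minus control, against listed gene length in bases on a log axis, for all 10666 measured genes (grey) and the cytosolic (blue) and mitochondrial (red) synthetases. The black line is the smoothed length trend. Lars2, Sars and Fars2 lie above the trend, and Hars and Vars2 below it.

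The ATF4 branch was followed through 29 genes of the amino acid response, 27 of them measured, which spread far wider than the synthetases. Atf4 itself had 118 and 88.9 FPKM, a ratio of 0.756 (0.718 to 0.797). Of the 27, 5 were higher and 3 lower by at least 2-fold, beside 1.57% and 6.32% of all measured genes, and the median difference was -0.09. Relative to the median of all genes, 6 were higher and 0 lower (3.22% and 1.36% of all), so the 3 lower calls below hold only for the values as deposited. The higher genes were Fgf21, a secreted hormone of nutrient stress (6 and 132 reads, ratio 25.4, 11.4 to 70.4), the stress protein gene Nupr1 (96.2 and 818 FPKM, ratio 8.51), Atf3, a stress transcription factor (34 and 182 reads), Cth, an enzyme of cysteine synthesis (20 and 63 reads), and the translation repressor gene Eif4ebp1 (13.9 and 30.1 FPKM). Serine synthesis genes were divided, with Psph below 1 (221 and 132 reads, ratio 0.689, 0.551 to 0.858). Psat1 (1.82, 1.52 to 2.18) and Phgdh (1.49, 1.35 to 1.64) stood above 1. So did the asparagine synthesis gene Asns, at 1.28 on 2072 and 2298 reads. The lower genes were Ddit4, an inhibitor of mTORC1 (76.2 and 29.5 FPKM, ratio 0.387), the lipoprotein receptor gene Vldlr (0.429), and Slc7a5, a carrier of large neutral amino acids such as leucine (28.1 and 12.7 FPKM, ratio 0.452, 0.413 to 0.494).

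The ATF4 list held 12 cytosolic synthetases taken as ATF4 targets from general knowledge. Their median difference was -0.62, 10 of the 12 were below the median of all genes, and Sars (0.21) and Mars (-0.05) were the exceptions. The 7 other measured cytosolic enzymes had a median of -0.26, with 2 below the median of all genes. Listed genes were longer, with a median of 3464.5 bases beside 2340 for the other 7. With the length trend removed the median differences were -0.27 and -0.03, a narrower gap. The lists overlap in range, since Hars, outside the list, was the lowest of all at -0.95. Of the measured response genes with a promoter window, 8 held the core TGATGNAA and 16 did not, beside 3.97% of all windows with it. The 8 were Vldlr, Chac1, Trib3, Pycr1, Asns, Atf3, Nupr1 and Fgf21. Their differences ran from -1.14 to 3.49 with a median of 0.27, where the 5 synthetases with the core ran from -0.88 to -0.38. The 16 response genes without the core ran from -1.35 to 0.80 with a median of -0.22, a range that overlaps that of the 8. Acinar markers were higher in the same library, and their part in the values of Nupr1, Fgf21 and the synthetases was not tested.

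Downstream of charging, the cytosolic elongation factors stood above the synthetases. Eef1a1, which brings charged tRNAs to the ribosome, had 2995 and 3080 FPKM, a ratio of 1.03 (1.02 to 1.04), and Eef2, which moves the ribosome along, 729 and 810 FPKM, a ratio of 1.11 (1.09 to 1.13). The 6 factors had a median of 0.18 and ran from -0.01 (Eef1g) to 0.34 (Eef1d), none past 2-fold. The cytosolic synthetases overlapped this range only with Dars, Farsb and Sars.

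In mitochondria the partners of the synthetases had a median close to theirs. The 14 translation factors and charging helpers had a median of -0.49, from -0.71 to 0.13, with 0 past 2-fold. Gfm1, a mitochondrial elongation factor, was lowest with 679 and 353 reads, a ratio of 0.600 (0.526 to 0.683), and Mtfmt, which formylates the initiator tRNA, had 6.02 and 3.89 FPKM. Mitochondria make glutaminyl-tRNA by amidation, and the subunits of that enzyme differed in ratio, with 0.652 for Qrsl1 (0.495 to 0.853), 0.650 for Gatc (0.540 to 0.781) and 1.11 for Gatb (0.914 to 1.35).

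**Figure D5:**
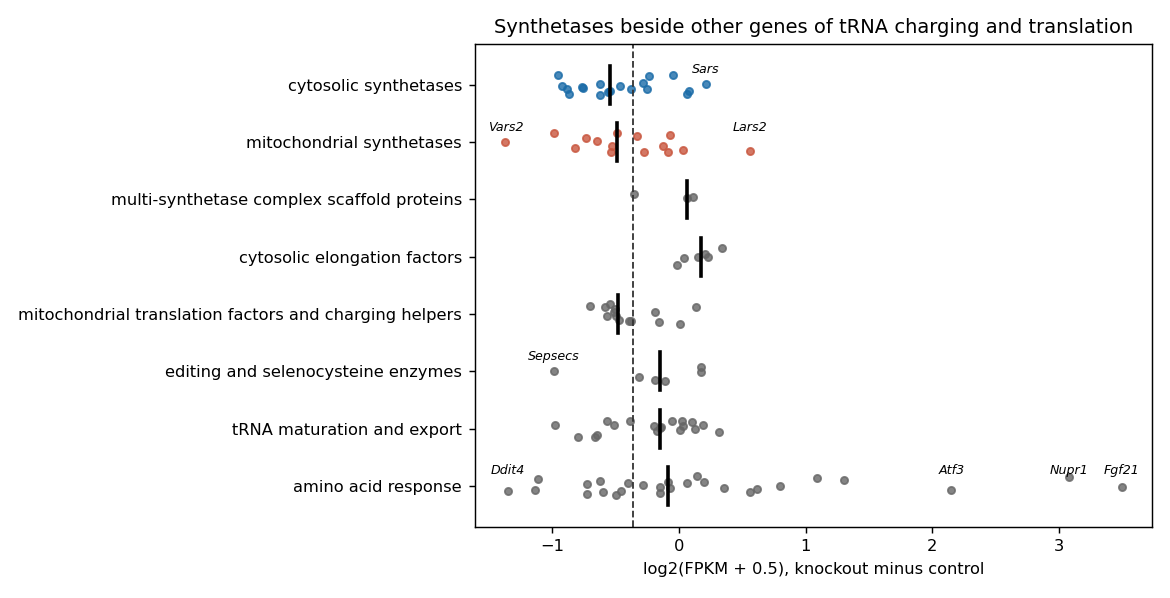
Difference in log2(FPKM + 0.5), knockout minus control, of each measured gene (points) in the synthetase groups and 6 other lists, with the list's median as a black bar and the median of all measured genes as a dashed line. Points are spread vertically for sight only. Both synthetase groups and the mitochondrial factors centre left of the dashed line, elongation factors right of it, and the amino acid response reaches from -1.35 to 3.49.

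Some members carry a limit of counting. Vars, the cytosolic valine enzyme on chromosome 17, is listed at 0 in both libraries. Within 100000 bases on either side, 14 of 22 listed genes were also at 0 in both, among them Csnk2b, a protein kinase subunit that cells in general use, and 20 had fewer than 30 reads in both libraries together. No level is therefore given for Vars, and the valine pair was not compared. The span of Aars overlaps Ddx19b by 3974 bases, that of Mars overlaps Ddit3 by 71 bases, that of Wars overlaps Wdr25 by 24 bases and that of Rars2 overlaps Orc3 by 7 bases, each on the opposite strand. Ddx19b had a ratio of 0.492, and Ddit3, the CHOP gene, 1.57 (1.34 to 1.84), so reads near the ends of Aars and Mars cannot be told from those of their neighbours without strand.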

How the data were processed

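RNA sequencing of islets gave 1 library per genotype, grouped by the labels. The authors deposited raw read counts per gene and FPKM values, per the file headers, and recomputing FPKM from counts, listed length and library total gave the deposited values. The authors' deposited comparison table holds a signal per library (counts over a size factor, 1.23 for the control and 0.816 for the knockout), the fold change, log2 fold change, and a raw as well as an adjusted p-value. Bowtie2 2.4.2, DESeq and build names are listed in the submitters' processing notes. How reads were assigned to genes, and whether by strand, is not stated in any source used here. Coordinates are those of GRCm38.

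The plan assumed FPKM, and raw counts, found beside them, served for the counting intervals. With 1 library per group no count model was fitted and no p-value across samples computed. A 2-fold size rule takes the place of a test. Intervals were computed with scipy 1.17.1, Clopper-Pearson for ratios and conditional odds ratios for pairs. Those for ratios were tested on simulated data, and those for pairs were not. The length trend was removed by lowess (statsmodels 0.14.6, fraction 0.3). The members, gene lists and comparisons were chosen with earlier results of these data known. Named genes were the 5 highest and 5 lowest measured cytosolic and 4 highest and 4 lowest mitochondrial members, the widest and closest pairs and, in each other list, the highest, the lowest and those past 2-fold. Other members were named after their values were seen. Promoter windows came from RefSeq, and the last 30 bases of 23 of the 27 windows of synthetase genes lay in a GENCODE transcript of the gene on the same strand. Alternatives were pseudocounts of 0.1 and 1, no minimum or 5 FPKM, other scalings, a 1.5-fold rule and removal of the length trend.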

Additional observations from a re-analysis of the deposited data

How the results depend on the processing

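No paired analysis was possible because each genotype has 1 library, and no library could be left out for the same reason. The cytosolic and mitochondrial medians stayed below 0 under each alternative run. The cytosolic median of -0.55 became -0.19 with the median of all genes set to 0, -0.17 with the authors' size factors, -0.34 with totals without the acinar markers and -0.26 with the length trend removed. The mitochondrial median of -0.49 became -0.13 with either of the first 2 scalings, -0.026 with the length trend removed and -0.21 at a minimum of 5 FPKM, which leaves 6 mitochondrial genes. That minimum widened the gap between compartments from -0.06 to -0.34. The number of members at least 2-fold lower, 1, became 3 with a pseudocount of 0.1, 0 at a minimum of 5 FPKM (Vars2 is below it), 0 with the length trend removed and 13 with the 1.5-fold rule. The number at least 2-fold higher, 0, became 1 (Lars2) with the length trend removed. Of single members, 19 were below 0 and 5 (Dars, Farsb, Lars2, Sars and Yars2) above 0 under each of the 5 scalings run, and 10 flipped or reached 0. Of all measured genes past 2-fold, 167 were higher and 674 lower as deposited, and 343 and 145 relative to the median. Leaving out Lars2 (mitochondrial median -0.51) or the members that overlap another gene (-0.51 and -0.40), both chosen after seeing the data, kept the direction of both medians. Depth limits the mitochondrial members most, the shallowest measured one having 57 knockout reads.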

Other observations

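Other genes of tRNA supply gave a mixed picture. Of 21 genes for tRNA maturation and export, 19 were measured, with a median difference of -0.15 and 0 past 2-fold on the log2(FPKM + 0.5) scale, which Xpo5 missed by the pseudocount. The lowest was Xpo5, an export receptor (12.4 and 6.06 FPKM, ratio 0.487, 0.436 to 0.543), followed by Trnt1, which adds the CCA end to tRNAs (297 and 135 reads, ratio 0.524, 0.424 to 0.645), and Xpot, the tRNA export receptor, had a ratio of 0.620 (0.572 to 0.670). Pop7, a subunit of RNase P and RNase MRP, was the highest (14.8 and 18.5 FPKM, ratio 1.25, 1.03 to 1.52). Pop1, a scaffold subunit of the same enzymes, had 104 and 26 reads, a ratio of 0.288 (0.180 to 0.447), at a mean below 1 FPKM, and Rpp14 is listed at 0 in both libraries.

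Selenocysteine is made on its own tRNA after Sars has charged it with serine. Sepsecs, which completes that step, had 18.2 and 8.93 FPKM, a ratio of 0.490 on 1903 and 808 reads, and Pstk, the kinase before it, had 6.59 and 5.70 FPKM, a ratio of 0.865 (0.683 to 1.09), while Sars had a ratio of 1.16. The editing enzymes Aarsd1, Prorsd1, Dtd1 and Dtd2 had ratios from 0.791 to 1.13, and 0 of the 6 genes of this list passed 2-fold on the log2(FPKM + 0.5) scale, which Sepsecs missed by the pseudocount.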
